A study of Mus musculus with 6 samples.

Results

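The type I interferon antiviral effectors described here are 30 mouse genes linked to the response to type I interferon. Many of their products act against viruses or sense viral RNA and DNA, while some restrain the response or have other roles. The genes were chosen by name, with earlier results of these data known. All 30 were found among the 38896 gene symbols in the deposited table of estimated counts per transcript, and the counts of each gene's transcripts were summed. RNA was measured in 6 cultures of colonic fibroblasts, the matrix-forming cells beneath the lining of the gut. They came from distal colons of animals 6 weeks old and were passaged 2 times in culture. Each of 3 mice, numbered 1716, 1717 and 1718, gave 1 culture labelled DSS and 1 labelled Ctrl, so n = 3 in each group and the groups pair by animal. DSS commonly stands for dextran sulfate sodium, which induces colitis when mice drink it. The series' design has the cells spend 24 h in inflammatory or in control conditioned medium, and the DSS cultures were taken to be those in inflammatory medium. How that medium was made, the strain of the mice and any allele they carried were not given in the sources used here.

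Type I interferons are secreted proteins that cells release on sensing viral nucleic acid. They bind the receptor made of Ifnar1 and Ifnar2, and the kinases Jak1 and Tyk2 then activate STAT proteins. With Irf9 these form a complex that binds a promoter element called ISRE and switches on genes such as those described here. Interferon-gamma, a product of T and NK cells, uses another receptor and acts mainly through an element called GAS, and it also induces many of these genes. Fibroblasts respond to both kinds of interferon.

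RefSeq promoter windows (GRCm38.p6, from 250 bases before to 50 after a gene's start) were matched for 22 of the 30 members. The ISRE letters searched were GAAA, then 2 bases of any kind, then GAAA again, on either strand, so that on the printed strand a match may also read as TTTC, 2 bases of any kind and TTTC. Such letters stood in the windows of 12 of the 22 members, against 3.99% of all 27025 genes with a window. To show what such a match looks like, windows are printed for 7 members with a match before the start, then for Oas1a, which has a match but passed no test, and for Lgals3bp, which rose and has none. Capitals mark the ISRE letters, and each sequence reads 5′ to 3′ along the gene.
Isg15 (chr4:156200769-156201068, minus strand): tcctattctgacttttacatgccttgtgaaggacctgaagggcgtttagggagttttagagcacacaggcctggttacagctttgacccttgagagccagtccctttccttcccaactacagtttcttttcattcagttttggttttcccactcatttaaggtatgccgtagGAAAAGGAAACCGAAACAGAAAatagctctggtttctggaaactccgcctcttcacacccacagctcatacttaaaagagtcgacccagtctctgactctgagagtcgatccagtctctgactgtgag
Ifit1 (chr19:34640639-34640938, plus strand): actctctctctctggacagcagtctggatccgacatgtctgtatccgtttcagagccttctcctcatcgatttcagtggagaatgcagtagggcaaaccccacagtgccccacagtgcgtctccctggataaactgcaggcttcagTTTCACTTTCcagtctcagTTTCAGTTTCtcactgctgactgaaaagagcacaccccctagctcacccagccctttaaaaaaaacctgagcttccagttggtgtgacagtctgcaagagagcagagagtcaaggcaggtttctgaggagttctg
Ifit3 (chr19:34583279-34583578, plus strand): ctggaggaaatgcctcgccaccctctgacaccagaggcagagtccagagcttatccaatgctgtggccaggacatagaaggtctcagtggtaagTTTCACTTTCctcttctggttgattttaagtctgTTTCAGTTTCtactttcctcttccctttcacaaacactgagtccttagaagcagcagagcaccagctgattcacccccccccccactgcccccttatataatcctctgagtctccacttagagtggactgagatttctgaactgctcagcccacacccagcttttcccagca
Ifit3b (chr19:34607707-34608006, plus strand): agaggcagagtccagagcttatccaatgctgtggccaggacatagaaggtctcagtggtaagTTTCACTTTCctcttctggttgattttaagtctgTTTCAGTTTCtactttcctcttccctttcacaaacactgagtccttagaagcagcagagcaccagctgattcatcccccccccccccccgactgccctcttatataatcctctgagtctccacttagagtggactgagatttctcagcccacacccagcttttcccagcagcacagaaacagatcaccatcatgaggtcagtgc
Oas3 (chr5:120777610-120777909, minus strand): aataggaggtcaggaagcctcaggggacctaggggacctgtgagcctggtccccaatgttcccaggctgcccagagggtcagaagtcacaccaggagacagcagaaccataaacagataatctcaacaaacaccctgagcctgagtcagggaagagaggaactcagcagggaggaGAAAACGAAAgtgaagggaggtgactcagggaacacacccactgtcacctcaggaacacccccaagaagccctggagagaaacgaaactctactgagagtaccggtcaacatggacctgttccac
Rsad2 (chr12:26456403-26456702, minus strand): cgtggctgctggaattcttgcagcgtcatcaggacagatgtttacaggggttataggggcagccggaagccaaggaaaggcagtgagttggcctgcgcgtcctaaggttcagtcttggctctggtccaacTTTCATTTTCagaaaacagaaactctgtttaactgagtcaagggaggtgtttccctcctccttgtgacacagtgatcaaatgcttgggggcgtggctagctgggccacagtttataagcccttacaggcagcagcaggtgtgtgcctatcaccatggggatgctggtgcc
Bst2 (chr8:71537423-71537722, minus strand): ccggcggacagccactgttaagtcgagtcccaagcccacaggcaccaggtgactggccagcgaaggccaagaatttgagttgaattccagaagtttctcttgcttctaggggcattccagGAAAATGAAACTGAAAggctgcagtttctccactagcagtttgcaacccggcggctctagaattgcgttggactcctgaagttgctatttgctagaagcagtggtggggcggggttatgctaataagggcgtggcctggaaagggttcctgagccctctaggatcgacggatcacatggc
Oas1a (chr5:120907476-120907775, minus strand): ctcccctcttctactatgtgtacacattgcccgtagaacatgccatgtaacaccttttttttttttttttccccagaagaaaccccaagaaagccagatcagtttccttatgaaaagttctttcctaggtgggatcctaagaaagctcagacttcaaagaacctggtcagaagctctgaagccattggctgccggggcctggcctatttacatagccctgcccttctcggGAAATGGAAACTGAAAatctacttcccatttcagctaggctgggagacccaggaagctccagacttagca
Lgals3bp (chr11:118401910-118402209, minus strand): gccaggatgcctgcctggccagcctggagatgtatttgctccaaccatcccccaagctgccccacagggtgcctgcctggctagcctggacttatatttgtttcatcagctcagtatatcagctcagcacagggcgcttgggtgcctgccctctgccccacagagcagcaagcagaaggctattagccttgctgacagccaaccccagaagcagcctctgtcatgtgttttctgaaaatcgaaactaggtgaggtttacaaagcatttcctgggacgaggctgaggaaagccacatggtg

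In Isg15 there were 3 overlapping matches, the first 78 bases and the last 66 bases before the start. Ifit1 had a pair of matches, which began 104 and 85 bases before its start. Ifit3 and its near copy Ifit3b had the same pair of matches with the same spacing, and the 104 bases that end with the second match were identical in both. The match of Oas3 began 75 bases before the start and that of Rsad2 120 bases before it. In Bst2 the matches, which overlap, began 130 and 124 bases before the start, and the GAS letters TTCNNNGAA began 136 bases before it and overlap the first. The other members with ISRE letters were Trim30a, with the match 36 bases before 1 of its starts, and Ddx58, Ifih1 and Eif2ak2, with the match within the first bases of the transcript. Windows of Ifit2, Ifi44, Oasl1, Oasl2, Ifi35, Cmpk2, Xaf1, Sp100, Samd9l and Lgals3bp held no such letters. GAS letters, which can overlap ISRE letters, stood in 5 of the 22 members' windows, against 9.55% of all genes with a window.

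Depth was 17293680 to 19482938 estimated counts per library. Levels are CPM, the share of a library's counts that a gene holds, with library sizes adjusted by the TMM method, in the order of mice 1716, 1717 and 1718, and means are given ± SD over the 3 cultures of a group. Changes are log2 fold changes of DSS over Ctrl ± SE from edgeR's quasi-likelihood test on the group alone, with p-values adjusted over the 19869 genes tested and a threshold of 0.05. This test does not use the pairing by mouse, nor do the fits that leave out libraries or mice. Results with the mouse as a block are set beside it. CPM does not account for gene length, so levels are compared between cultures and not between genes. All 9 fibroblast markers were detected, with a sum of 20130 to 24720 CPM in DSS and 37350 to 44060 CPM in Ctrl, and of these 1 (Pdgfra) rose and 5 fell. Macrophage markers were detected too, 10 of 10, with a sum of 1246 to 2052 CPM in DSS and 1964 to 2844 CPM in Ctrl, and of these 1 rose and 4 fell. Sums of 10 T, NK and B cell markers were 7.97 to 9.64 CPM in DSS and 6.69 to 9.22 CPM in Ctrl, with Cd3g and Ncr1 at 0. Those of 5 plasmacytoid dendritic cell markers were 8.57 to 10.7 CPM in DSS and 8.16 to 9.32 CPM in Ctrl. Smooth muscle and pericyte markers, 5 of 5 detected, summed to 958 to 1138 CPM in DSS and 1381 to 1483 CPM in Ctrl (1 rose, 1 fell), and 4 enteric glia markers to 59.4 to 261 CPM in DSS and 95.8 to 323 CPM in Ctrl. Of 7 epithelial markers, with sums of 3.07 to 4.88 CPM in DSS and 9.29 to 13.6 CPM in Ctrl, 1 fell, the mucin gene Muc2 (log2 fold change -2.11 ± 0.25, edgeR adjusted p = 0.00269). Genes of these lists are named here after their values were seen. The part of these other cells in the results was not tested, and more RNA per cell cannot be told apart from more cells of a type.

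All 30 members passed the filter on low counts, and 14 rose in the DSS cultures while none fell. Across all genes tested, 7.37% rose and 5.91% fell. The members were chosen with earlier results of these data known, so these shares are a description and no independent test. The 14 were Ifit1, Ifit3, Ifit3b, Ifi44, Oas3, Oasl2, Rsad2, Bst2, Rtp4, Ddx58, Ifih1, Zbp1, Xaf1 and Lgals3bp, with log2 fold changes from 0.44 to 2.53. Of these, 11 changed more than 2-fold and 4 more than 4-fold. With the mouse added to the fit as a block, 24 members rose and none fell, against 12.3% of all genes that rose and 12.7% that fell. These 24 held all 14. No member had an unadjusted edgeR p under 0.05 for a fall, and DESeq2, without or with the block, and limma-voom called no fall either. The median log2 fold change of the 30 was 0.95, against 0.01 for all genes tested. Levels of the 3 DSS cultures all lay above the 3 Ctrl cultures for 18 members, where 17.7% of all genes did so, and all below them for none, where 16.5% of all genes did so.

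**Figure D1:**
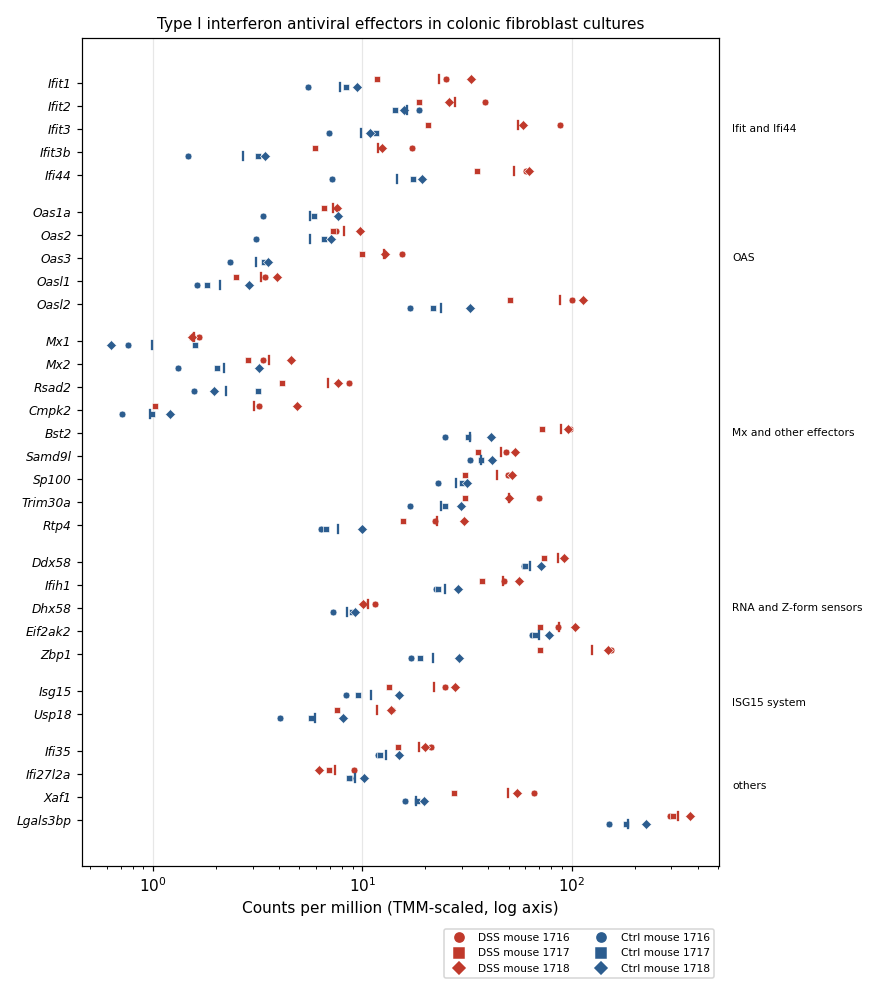
Level of each of the 30 genes in every culture, in CPM on a log axis, with DSS in red above Ctrl in blue, 1 symbol shape per mouse and vertical ticks at the group means; levels are not per gene length and are read along a row. The DSS square (mouse 1717) is the lowest of the 3 DSS symbols in 27 rows, and the Ctrl circle (mouse 1716) the lowest of the 3 Ctrl symbols in 27 rows. Of all genes tested, DSS 1717 was the lowest DSS culture in 32.1% and Ctrl 1716 the lowest Ctrl culture in 35.1%.

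The number of members that rose depended on which cultures entered the test. It was 8 without Ctrl 1716, where 4.70% of all genes rose, and 6 without Ctrl 1717, where 3.79% did. It was 5 without both cultures of mouse 1716, where 4.71% of all genes rose, and 6 without both of mouse 1718, where 1.88% did. Without DSS 1717 it was 21, with 5.43% of all genes. In each of these fits a smaller share of all genes rose than the 7.37% with all 6 libraries. These fits had fewer libraries and no block, so a call lost in them need not rest on the culture left out. In all 9 of these leave-out fits (6 without 1 library, 3 without 1 mouse) Oas3, Zbp1 and Bst2 rose.

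The Ifit proteins bind the ends of viral RNA and block its translation, and their genes lie side by side on chromosome 19. Ifit3 (NCBI Gene 15959, chromosome 19, 34583119 to 34588982, GRCm38.p6) was at 87.6, 20.5 and 58.3 CPM in DSS, against 6.94, 11.7 and 10.9 CPM in Ctrl. Ifit3b (NCBI Gene 667370, chromosome 19, 34607530 to 34613403) was at 17.4, 5.96 and 12.5 CPM in DSS, against 1.47, 3.18 and 3.44 CPM in Ctrl. In both genes every DSS culture lay above every Ctrl culture, and the DSS culture of mouse 1717 was the lowest of its group. Ifit3 rose by 2.50 ± 0.50 (edgeR adjusted p = 0.0165) and Ifit3b by 2.15 ± 0.44 (edgeR adjusted p = 0.0189). Of all 31-base stretches in GENCODE transcripts of Ifit3, 61.8% also occur in Ifit3b, so reads can be shared out wrongly between them. Ifit3 lost its call without any 1 Ctrl library, mouse 1716 or mouse 1718 (edgeR adjusted p = 0.0559 to 0.126). Ifit3b lost it without Ctrl 1716, Ctrl 1717, mouse 1716 or mouse 1718 (edgeR adjusted p = 0.0536 to 0.113). Ifit1, whose protein recognises viral RNA caps, averaged 23.4 ± 10.9 CPM in DSS and 7.79 ± 2.03 CPM in Ctrl and rose by 1.59 ± 0.37 (n = 3, edgeR adjusted p = 0.0315). That call was lost with limma-voom (0.0624), and in 7 of the 9 leave-out fits (edgeR adjusted p = 0.066 to 0.159), that is, without DSS 1716, DSS 1718, any 1 Ctrl library, mouse 1716 or mouse 1718.

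Ifit2, another gene of the cluster, was at 38.7, 18.7 and 26.0 CPM in DSS, against 18.7, 14.3 and 15.8 CPM in Ctrl, and the lowest DSS culture lay only just above the highest Ctrl culture. Its log2 fold change of 0.77 ± 0.25 missed the threshold (edgeR adjusted p = 0.0866) and met it under the mouse block (0.00453), without DSS 1717 (0.0265) and with DESeq2 (0.0197). Ifi44, an interferon-induced protein that restrains virus replication, was at 60.4, 35.2 and 62.9 CPM in DSS, against 7.20, 17.5 and 19.3 CPM in Ctrl. It rose by 1.85 ± 0.37 (edgeR adjusted p = 0.0168), with no overlap of the groups. Its call was lost without Ctrl 1717, mouse 1717 or mouse 1718 (edgeR adjusted p = 0.0542 to 0.0915).

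The 2′-5′-oligoadenylate synthetases are sensors of double-stranded RNA that activate the ribonuclease RNase L, and the family split into members that rose and members that did not pass. Oas3 (NCBI Gene 246727, chromosome 5, 120753098 to 120777684) was at 15.4, 9.93 and 12.8 CPM in DSS, against 2.33, 3.40 and 3.55 CPM in Ctrl. It rose by 2.04 ± 0.22, with the smallest p of the 30 (edgeR adjusted p = 0.00215), and the groups lay far apart. Oas2 (NCBI Gene 246728, chromosome 5, 120730333 to 120749886), its neighbour, averaged 8.16 ± 1.42 CPM in DSS and 5.59 ± 2.18 CPM in Ctrl and did not pass (log2 fold change 0.55 ± 0.30, edgeR adjusted p = 0.271). Oas1a (NCBI Gene 246730, chromosome 5, 120896256 to 120907544) averaged 7.21 ± 0.591 CPM in DSS and 5.63 ± 2.18 CPM in Ctrl and did not pass either (0.36 ± 0.27, edgeR adjusted p = 0.434). Both also failed with the mouse as a block (edgeR adjusted p = 0.0761 and 0.242). Of the estimated counts of Oas2, 83.8% in DSS and 90.9% in Ctrl were given to 1 predicted transcript, XR_003955644.1. For Oas1a the predicted XR_001784699.1 held 46.15% in DSS and 54.18% in Ctrl. Whether Oas3 changed more than its neighbours was not tested. Transcripts of Oas1a share 68.7% of their 31-base stretches with Oas1g, so its level is uncertain.

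The OAS-like genes Oasl1 and Oasl2, adjacent on another part of chromosome 5, share no 31-base stretch, so their reads can be told apart. Oasl2, whose protein carries ubiquitin-like domains beside the synthetase fold, was at 101, 50.5 and 113 CPM in DSS, against 16.8, 21.8 and 32.9 CPM in Ctrl. It rose by 1.89 ± 0.34 (edgeR adjusted p = 0.0119) with every DSS culture above every Ctrl culture, and lost the call without Ctrl 1717, mouse 1716 or mouse 1718 (edgeR adjusted p = 0.0519 to 0.0753). Oasl1, which restrains interferon production in mice by blocking translation of Irf7, was at 3.42, 2.50 and 3.93 CPM in DSS, against 1.62, 1.81 and 2.87 CPM in Ctrl. The groups overlapped, and its log2 fold change of 0.65 ± 0.27 passed only with the block (edgeR adjusted p = 0.16 without it and 0.0456 with it). DESeq2 with the block did not call it (adjusted p = 0.251).

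The Mx genes, which encode dynamin-like GTPases that trap viral particles, were low and did not pass. RefSeq annotates Mx1 and Mx2 as transcribed pseudogenes in the reference genome, and most laboratory strains are known to lack working copies. Mx2 was at 3.37, 2.84 and 4.55 CPM in DSS, against 1.32, 2.03 and 3.21 CPM in Ctrl, with an overlap between groups. The change was 0.72 ± 0.33 on the log2 scale (edgeR adjusted p = 0.197, and 0.0418 with the mouse as a block, but 0.157 with DESeq2 and the block). Mx1 averaged 1.57 ± 0.0694 CPM in DSS and 0.993 ± 0.520 CPM in Ctrl and passed in neither fit (0.66 ± 0.34, edgeR adjusted p = 0.25 and 0.161). It passed without Ctrl 1717 (edgeR adjusted p = 0.0463), the Ctrl culture in which it was highest.

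Rsad2, or viperin, makes a nucleotide that stops viral RNA synthesis, and Cmpk2, a nucleotide kinase, lies beside it on chromosome 12. Rsad2 (NCBI Gene 58185, chromosome 12, 26442743 to 26456452) was at 8.67, 4.14 and 7.68 CPM in DSS, against 1.57, 3.18 and 1.95 CPM in Ctrl. It rose by 1.61 ± 0.35 (edgeR adjusted p = 0.0223), with the cultures of mouse 1717 closest together. The call was lost without DSS 1716, DSS 1718, Ctrl 1716, Ctrl 1718, mouse 1716 or mouse 1718 (edgeR adjusted p = 0.0544 to 0.175). Cmpk2 (NCBI Gene 22169, chromosome 12, 26469117 to 26479837) was at 3.19, 1.02 and 4.89 CPM in DSS, against 0.709, 0.986 and 1.20 CPM in Ctrl, and only the DSS culture of mouse 1717 lay among the Ctrl cultures. Its log2 fold change of 1.65 ± 0.54 missed the threshold (edgeR adjusted p = 0.0888) and met it under the mouse block (0.0186), without DSS 1717 (0.00972) and with DESeq2 (0.0188).

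Bst2, or tetherin, holds budding virions at the cell surface. It was at 98.0, 71.9 and 95.8 CPM in DSS, against 24.8, 32.0 and 41.2 CPM in Ctrl, and the lowest DSS culture was far above the highest Ctrl culture. It rose by 1.44 ± 0.20 (edgeR adjusted p = 0.00448). Rtp4, which binds viral RNA and also carries receptors to the cell surface, was at 22.3, 15.7 and 30.5 CPM in DSS, against 6.33, 6.69 and 9.92 CPM in Ctrl, with no overlap. It rose by 1.58 ± 0.27 (edgeR adjusted p = 0.00999; 0.0654 without mouse 1716). Of its estimated counts, 68.1% in DSS and 23.2% in Ctrl were given to 1 predicted transcript, XM_030249254.1, and 19.4% in DSS and 20.5% in Ctrl to the curated NM_023386.5. Another predicted transcript, XM_030249255.1, held 4.56% in DSS and 35.0% in Ctrl, and its counts were lower in DSS in each mouse. The annotated span of Rtp4 overlaps the end of Masp1, which held 604 counts over the DSS libraries and 3092 over the Ctrl libraries. The strand setting of the authors' counting was not given in the sources used here, so reads of overlapping genes cannot be told apart, and the part of Masp1 was not tested.

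The restriction factors and regulators Trim30a, Sp100 and Samd9l did not pass in edgeR on the group alone. Trim30a, a ubiquitin ligase that dampens inflammatory signalling, was at 70.1, 30.9 and 50.3 CPM in DSS, against 16.8, 24.9 and 29.5 CPM in Ctrl, and the groups did not overlap. The change was 1.09 ± 0.31 on the log2 scale (edgeR adjusted p = 0.0592, and 0.0337 with the mouse as a block). Sp100, a component of PML nuclear bodies, was at 49.5, 30.9 and 52.0 CPM in DSS, against 22.9, 29.9 and 31.5 CPM in Ctrl. The log2 fold change of 0.65 ± 0.21 missed the threshold without the block (edgeR adjusted p = 0.0839) and met it with the block (0.035), and the DSS culture of mouse 1717 lay among the Ctrl cultures. Samd9l, which arrests translation in infected cells, was at 48.7, 35.7 and 53.6 CPM in DSS, against 32.6, 36.8 and 41.7 CPM in Ctrl. It passed in neither fit (0.31 ± 0.16, edgeR adjusted p = 0.243 and 0.0889), and in mouse 1717 the DSS culture was the lower of the pair. Trim30a and Sp100 passed without DSS 1717 (edgeR adjusted p = 0.0207 and 0.0158), and DESeq2 on the group alone called both (adjusted p = 0.00215 and 0.0253). With the block DESeq2 called Sp100 (adjusted p = 0.0104) and not Trim30a (0.159).

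The sensors of viral nucleic acid differed widely in their change. Zbp1, which detects nucleic acids in the Z form and can start necroptosis, had the largest log2 fold change of the 30 members, 2.53 ± 0.33 (edgeR adjusted p = 0.00405). It was at 155, 70.7 and 148 CPM in DSS, against 17.03, 19.0 and 29.0 CPM in Ctrl, so that even the lowest DSS culture stood far above the highest Ctrl culture. Ifih1, or MDA5, a receptor for long double-stranded RNA, was at 47.6, 37.4 and 55.9 CPM in DSS, against 22.5, 23.1 and 28.6 CPM in Ctrl. It rose by 0.93 ± 0.16 (edgeR adjusted p = 0.0104), with 0.0511 without Ctrl 1717 and 0.0718 without mouse 1716. Ddx58, or RIG-I, a receptor for RNA with a free 5′ triphosphate, averaged 86.1 ± 10.4 CPM in DSS and 63.6 ± 6.94 CPM in Ctrl. Its rise of 0.44 ± 0.11 was the smallest among the members that passed (edgeR adjusted p = 0.0455). It lost the call without DSS 1716, DSS 1718, Ctrl 1716, Ctrl 1717 or any 1 mouse (edgeR adjusted p = 0.102 to 0.216).

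Dhx58, or LGP2, which tunes both of these receptors, averaged 10.6 ± 0.755 CPM in DSS and 8.45 ± 1.06 CPM in Ctrl. It passed in neither fit (log2 fold change 0.33 ± 0.13, edgeR adjusted p = 0.136 and 0.101 with the block). Eif2ak2, or PKR, the kinase that halts translation when it binds double-stranded RNA, was at 85.9, 70.3 and 104 CPM in DSS, against 64.9, 66.8 and 77.6 CPM in Ctrl. The groups overlapped, and its log2 fold change of 0.31 ± 0.14 passed under the mouse block in edgeR (adjusted p = 0.0312) but not without it (0.202) or in DESeq2 with the block (0.0753). The annotated span of Eif2ak2 overlaps the pseudogene Gm6548 (637 counts over the DSS and 463 over the Ctrl libraries) and Gm26637 (202 and 183). That of Dhx58 overlaps the noncoding gene Gm38483 (116 and 155). Reads of overlapping genes cannot be told apart here, and the part of these genes was not tested. The change of Zbp1 and that of Eif2ak2 were not tested against each other.

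**Figure D2:**
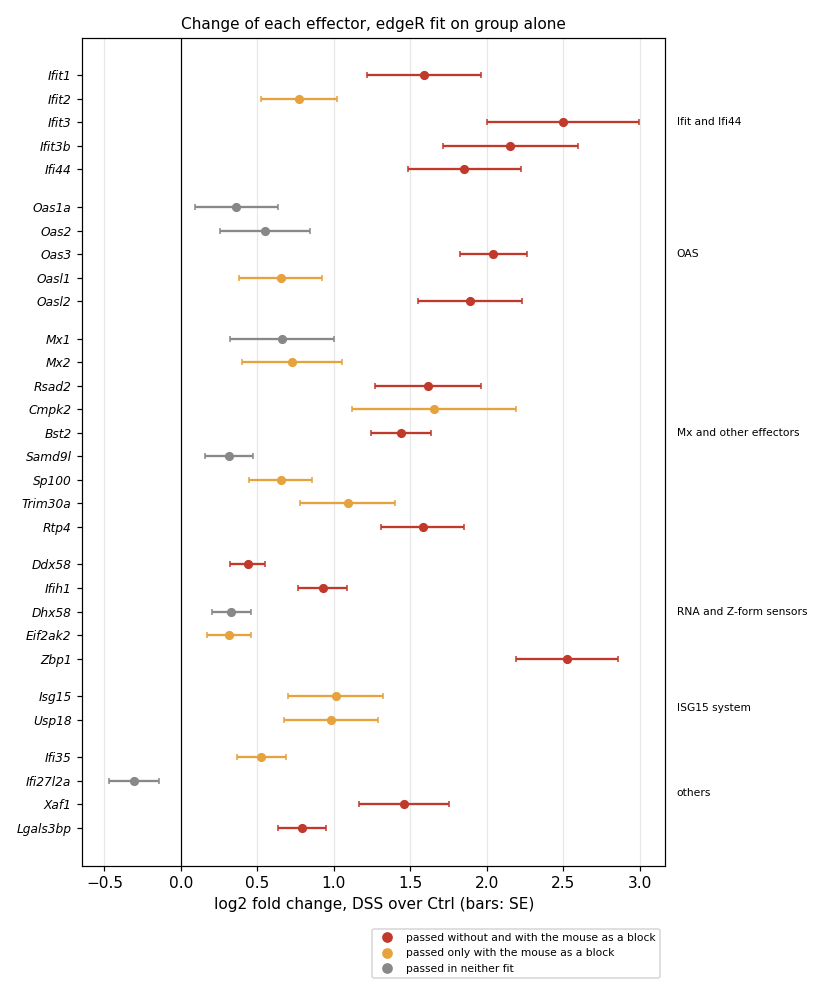
Change of each of the 30 genes as log2 fold change of DSS over Ctrl, with bars of 1 SE, from the edgeR fit on the group alone. The 14 red genes passed without and with the mouse as a block, the 10 orange genes only with the block, and the 6 grey genes in neither fit; Ifi27l2a alone lies below 0.

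Isg15 is a ubiquitin-like protein that is attached to other proteins, and Usp18 removes it and also shuts off the type I receptor. Isg15 was at 24.9, 13.5 and 27.8 CPM in DSS, against 8.36, 9.54 and 15.02 CPM in Ctrl, and the DSS culture of mouse 1717 lay below the Ctrl culture of mouse 1718. Its log2 fold change of 1.01 ± 0.31 missed the threshold (edgeR adjusted p = 0.0745) and met it under the mouse block (0.00659), without DSS 1717 (0.0239) and with DESeq2 (0.00804). Usp18 was at 13.9, 7.55 and 13.7 CPM in DSS, against 4.05, 5.70 and 8.08 CPM in Ctrl, with the same overlap. The change was 0.98 ± 0.31 on the log2 scale (edgeR adjusted p = 0.0789, 0.02 with the block, 0.0354 without DSS 1717 and 0.0149 with DESeq2). On the genome the annotated span of Isg15 overlaps the noncoding gene Gm46878. It held 574 counts over the DSS and 509 over the Ctrl libraries, and its part was not tested. Of the genes that attach Isg15 to its targets, the activating enzyme Uba7, the conjugating enzyme Ube2l6 and the ligases Herc6 and Trim25, 4 of 4 rose by edgeR, without and with the block, and 2 by limma-voom. Of all genes tested, 7.37% rose by edgeR, 12.3% with the block and 6.97% by limma-voom. None of the 4 was called without Ctrl 1718 or mouse 1718, 1 was called without Ctrl 1716, Ctrl 1717 or mouse 1716, and 2 without DSS 1718. In these leave-out fits 1.88% to 5.28% of all genes rose. Herc6, the main ligase in mice, rose by 1.96 ± 0.40 (edgeR adjusted p = 0.0177), Uba7 by 1.88 ± 0.36 (0.0148), Trim25 by 0.47 ± 0.09 (0.0181) and Ube2l6 by 1.25 ± 0.30 (0.0346). Herc6 was not called by limma-voom (adjusted p = 0.0547), and lost its edgeR call without DSS 1718, any 1 Ctrl library, mouse 1716 or mouse 1718 (adjusted p = 0.0502 to 0.143). Uba7 lost its call without any 1 Ctrl library, mouse 1716 or mouse 1718 (edgeR adjusted p = 0.0517 to 0.123). Ube2l6 was not called by limma-voom either (adjusted p = 0.0618), nor by edgeR without DSS 1716, DSS 1718, any 1 Ctrl library, mouse 1716 or mouse 1718 (adjusted p = 0.0771 to 0.183). The call of Trim25 was lost without DSS 1717, Ctrl 1718, mouse 1717 or mouse 1718 (edgeR adjusted p = 0.0539 to 0.123).

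Of the remaining members, Xaf1, which favours cell death by opposing the inhibitor XIAP, was at 66.0, 27.4 and 55.0 CPM in DSS, against 16.1, 18.2 and 19.7 CPM in Ctrl. It rose by 1.46 ± 0.29 (edgeR adjusted p = 0.0174), with no overlap, and lost the call without DSS 1718, any 1 Ctrl library, mouse 1716 or mouse 1718 (edgeR adjusted p = 0.051 to 0.127). Lgals3bp, a secreted glycoprotein that binds galectins and is induced by interferon and viral infection, was at 296, 306 and 369 CPM in DSS, against 151, 181 and 227 CPM in Ctrl. It rose by 0.79 ± 0.16 (edgeR adjusted p = 0.0163), and here the DSS culture of mouse 1717 was not the lowest. Its call was lost without Ctrl 1717 or mouse 1717 (edgeR adjusted p = 0.0704 and 0.145). Ifi35, an interferon-induced leucine zipper protein, was at 21.3, 14.8 and 19.9 CPM in DSS, against 11.9, 12.1 and 14.9 CPM in Ctrl. With edgeR its log2 fold change of 0.52 ± 0.16 missed the threshold (adjusted p = 0.0724) and met it with the block (0.016) and without DSS 1717 (0.0266). DESeq2 on the group alone called it (adjusted p = 0.047).

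Ifi27l2a, a small membrane protein that many interferon signatures include, was the member with a log2 fold change below 0. It was at 9.13, 6.92 and 6.20 CPM in DSS, against 8.77, 8.60 and 10.2 CPM in Ctrl. The groups overlapped and the change of -0.31 ± 0.16 passed in neither fit (edgeR adjusted p = 0.267 and 0.189 with the block). Its neighbour Ifi27l2b fell by 1.31 ± 0.30 on the log2 scale (edgeR adjusted p = 0.0262), a call lost without any 1 DSS library, Ctrl 1717, Ctrl 1718, mouse 1717 or mouse 1718 (edgeR adjusted p = 0.0513 to 0.217). The overlapping gene Ifi27 averaged 74.0 CPM in DSS and 72.5 CPM in Ctrl and did not pass (edgeR adjusted p = 0.925).

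The within-mouse differences were unequal. Their median over the 30 members, on the log2 CPM scale, was 1.42 in mouse 1716, 0.42 in mouse 1717 and 0.83 in mouse 1718. Over all genes tested these medians were 0.01, 0.00 and 0.00. A difference above 0 was found for 30 members in mouse 1716, 27 in mouse 1717 and 28 in mouse 1718, and 26 members were higher in DSS in all 3 mice, as were 28.4% of all genes tested. A difference above 1 was found for 23, 6 and 13 members. Mouse 1717 had the smallest difference for 25 of the 30 members and mouse 1716 the largest for 28. Of all genes tested, mouse 1717 had the smallest difference in 32.8% and mouse 1716 the largest in 36.3%. Of the 1451 other genes that rose, those shares were 35.4% and 26.7%. With 1 culture of each kind per mouse, a difference between mice has no replicate and was not tested.

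Summed over the 30 members, the level was 1492, 1002 and 1543 CPM in the DSS cultures of mice 1716, 1717 and 1718, and 547, 645 and 785 CPM in their Ctrl cultures. DSS 1717 was thus the lowest DSS culture and Ctrl 1716 the lowest Ctrl culture, and Ctrl 1718 was the highest Ctrl culture for 26 members. Of all genes tested, Ctrl 1718 was the highest Ctrl culture in 35.2%. The sum of macrophage markers was 1305, 2052 and 1246 CPM in DSS and 1964, 2844 and 2465 CPM in Ctrl, in the same order of mice. In DSS this marker sum was highest in the culture where the members were lowest, that of mouse 1717. In Ctrl both sums were lowest in the culture of mouse 1716. The part of macrophages in the result was not tested.

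**Figure D3:**
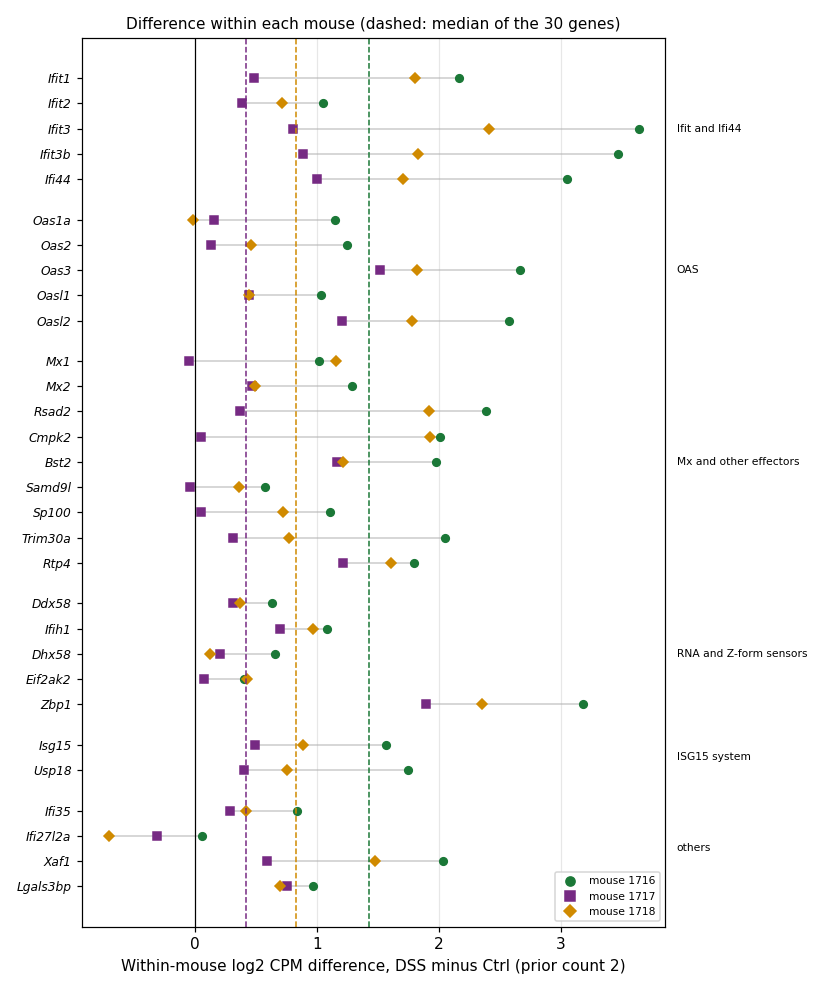
Difference of log2 CPM between the DSS and the Ctrl culture of the same mouse for each of the 30 genes, 1 symbol per mouse, with dashed lines at the median of the 30 genes. The medians stand at 0.42 for mouse 1717, 0.83 for mouse 1718 and 1.42 for mouse 1716.

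The genes that make interferon were at or near 0 in all cultures, while some of those that carry its signal rose. None of 21 interferon genes passed the filter on low counts, and 10 of them were at 0 in every library. Ifnb1 had 1 count over the DSS libraries and 0 over the Ctrl libraries. Ifng had 8 counts over the DSS libraries, 7 of them in DSS 1716, and 0 over the Ctrl libraries, while Ifnk, the most abundant, had 26 and 5. These 3 were named after their values were seen. A count of 0 in a library allows up to 3 counts, so low transcription of these genes was not detectable at this depth.

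The counts in the lists below stand beside the shares of all genes tested. On the group alone 7.37% of these rose and 5.91% fell, and with the mouse as a block 12.3% rose and 12.7% fell. These lists, and that of the genes that attach Isg15, were also chosen with earlier results of these data known. Their counts are thus a description and no independent test. Of 9 receptors and JAK kinases 3 rose, and these were Ifnar2, by 0.57 ± 0.07 (edgeR adjusted p = 0.00306), Jak2, by 0.65 ± 0.11 (0.00874), and Tyk2, by 0.41 ± 0.08 (0.0181). Of 10 STAT and IRF factors 7 rose, and 9 with the mouse as a block. Stat2 rose by 1.46 ± 0.22 (edgeR adjusted p = 0.00625) and Irf9, a DNA-binding part of the complex that binds ISRE, by 0.89 ± 0.14 (0.00748). Of 12 adaptors and kinases of nucleic acid sensing 5 rose, among them the kinases Ikbke, by 0.69 ± 0.07 (edgeR adjusted p = 0.0015), and Tbk1, by 0.47 ± 0.09 (0.0162), and the ligase Trim25. Ikbke was called in all 9 leave-out fits. Without mouse 1716 the call of Stat2 was lost (edgeR adjusted p = 0.0505), and without mouse 1717 those of Ifnar2 (0.0546) and Irf9 (0.0587). The call of Jak2 was lost without mouse 1717 (edgeR adjusted p = 0.083) or mouse 1718 (0.0575). That of Tyk2 was lost without DSS 1717, Ctrl 1717 or any 1 mouse (edgeR adjusted p = 0.0542 to 0.142), and that of Tbk1 without any 1 Ctrl library or any 1 mouse (0.0534 to 0.107).

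Of 6 negative regulators of interferon signalling 2 rose and 1 fell, and with the mouse as a block 3 rose and 1 fell. Socs1, which inhibits JAK kinases, rose by 1.37 ± 0.34 (edgeR adjusted p = 0.037) and Irf2, which competes with activating factors, by 0.44 ± 0.08 (0.0114), while the phosphatase Ptpn6 fell by 0.46 on the log2 scale (edgeR adjusted p = 0.0431). Socs1 lost its call with limma-voom (adjusted p = 0.0852) and without DSS 1716, DSS 1718, any 1 Ctrl library, mouse 1716 or mouse 1718 (edgeR adjusted p = 0.0866 to 0.191). Irf2 lost it without Ctrl 1717, mouse 1717 or mouse 1718 (edgeR adjusted p = 0.0551 to 0.106), and Ptpn6 in every leave-out fit but that without DSS 1716 (edgeR adjusted p = 0.084 to 0.231). Ptpn6 also lost it with no filter on low counts (edgeR adjusted p = 0.0535) and with DESeq2 and the block (adjusted p = 0.074).

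Of 53 tested genes of a longer list of interferon-stimulated genes 29 rose and 2 fell, with a median log2 fold change of 0.76, and with the mouse as a block 38 rose and 2 fell. Without mouse 1718, the fit with the fewest calls here, 3 of these rose, as did 3 of the STAT and IRF factors and 6 of the genes linked to interferon-gamma. In that fit 1.88% of all genes rose. The smallest p-values were those of Pml, the scaffold of nuclear bodies, which rose by 0.99 ± 0.09 (edgeR adjusted p = 0.0015), the ubiquitin ligase Rnf114, by 0.96 ± 0.13 (0.00401), and Slfn2, by 0.71 ± 0.10 (0.00486; 0.0574 without mouse 1718). Besides Ifi27l2b the gene of that list that fell was the nucleotidase Nt5c3, which fell by 0.43 on the log2 scale (edgeR adjusted p = 0.0336), a call lost in all 9 leave-out fits (edgeR adjusted p = 0.0557 to 0.224). DESeq2 did not call it either, without the block (adjusted p = 0.0838) or with it (0.183). Of 14 tested genes known for strong induction by interferon-gamma 12 rose, without and with the block, and 9 by limma-voom (6.97% of all genes), with a median of 3.38. Their smallest p-values were those of Cxcl9, a chemokine for T cells (7.78 ± 0.77, edgeR adjusted p = 0.00168), and the GTPases Tgtp1 (8.59 ± 1.06, 0.00326) and Irgm1 (2.63 ± 0.34, 0.00391). These medians are descriptions beside the 0.95 of the 30 antiviral effectors, and the lists were not tested against each other. Gbp10, also on the interferon-gamma list, missed the filter on low counts, with 524 counts over the DSS and 4 over the Ctrl libraries. The lists share genes, so that Socs1 counts here and among the negative regulators, and Irf2 there and among the STAT and IRF factors.

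**Figure D4:**
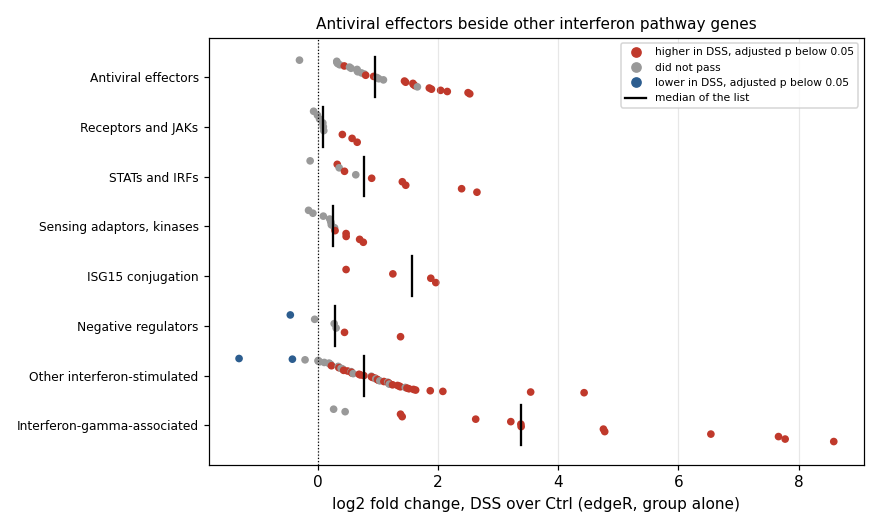
log2 fold change of DSS over Ctrl for each tested gene of the 30 antiviral effectors and of 7 other lists of the interferon pathway, with red and blue points for genes that rose or fell at an adjusted p below 0.05, grey points for genes that did not pass, and black ticks at each list's median. The effectors have a median of 0.95, receptors and JAK kinases 0.09, STAT and IRF factors 0.76 and interferon-gamma-associated genes 3.38.

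Of the 12 members with ISRE letters in the promoter window, 8 rose and 11 rose with the mouse as a block, and their log2 fold changes ran from 0.31 to 2.50 with a median of 1.26. Of the 10 members whose window held no such letters, 4 rose and 9 rose with the block, from 0.31 to 1.89 with a median of 0.78. The ranges overlapped widely and the difference was not tested. Ifit3 and Ifit3b, whose printed windows hold the same pair of matches, rose by similar amounts. Reads can be shared out wrongly between these 2 genes, so their changes need not be independent. Oas1a, with a pair of overlapping matches 20 and 14 bases before its start, did not pass, while Lgals3bp rose with no match in its window. A match is a run of letters and no evidence that a factor binds there. The search took exact letters within the window only, so a lack of a match is no evidence that such an element is absent.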

How the data were processed

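Total RNA of 6 cultures went through ribosomal RNA depletion and a directional library kit, per the labels' protocols. The authors deposited unscaled estimated counts per RefSeq transcript. The submitters' processing notes name kallisto, GRCm38 and mm10, whose roles, versions and settings were not given in the sources used here. Estimated counts of 120299 transcripts were summed per gene symbol and rounded. Genes passing filterByExpr (count 10, total 15) were TMM-scaled and tested with edgeR 4.0.16 (quasi-likelihood, group alone, Benjamini-Hochberg over 19869 genes, R 4.3.3). Alternatives used DESeq2 1.42.0, limma 3.58.1 (voom), other scalings, no filter and left-out libraries or mice. SE is the log2 fold change divided by the root of F. Within-mouse differences used log2 CPM with a prior count of 2. Depth was 17293680 to 19482938 estimated counts per library.

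Libraries of a number come from the same animal. Across 19869 genes, deviations from the group means of the DSS and Ctrl libraries of 1 mouse correlated with r = 0.352, 0.212 and 0.463, against -0.36 to 0.022 between mice. This r is across genes, which share libraries. Deviations from a group's mean also cancel out within the group, so a positive r within mice forces lower values between mice. The 3 cultures of a group came from separate mice.

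The members and lists were chosen with earlier results of these data known. Values in every library are given for the 12 called members with the smallest p, up to 5 uncalled members with the highest CPM, members whose call differs with the block and any with a log2 fold change below 0. In each pathway list the 3 smallest p-values and up to 3 genes that fell are named. A gene that this rule names is not reported here. Where a pathway symbol was not in the table (Mnda, Pyhin1) it was not used here. The ISRE letters with a C after the last A were an alternative. Gene IDs of all 30 members matched RefSeq GRCm38.p6, and promoter sequences are RefSeq's.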

Additional observations from a re-analysis of the deposited data

How the results depend on the processing

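With the mouse as a replicate block in edgeR, 24 members and 2447 of all genes were higher and 2518 of all genes lower in DSS, against 14, 1465 and 1174 without it. Leaving out 1 library or 1 mouse gave 5 to 21 members higher, 378 to 1310 of all genes higher, 185 to 1108 lower and 14 to 62 pathway genes changed, and a median of the members of 0.68 to 1.18. No member was called lower in any setting, and none of the 30 changed direction in any. DESeq2 called 21 members higher, 20 with the block, limma-voom 13, and edgeR 14 with RLE factors, with library totals or with no filter. Of all genes tested, DESeq2 called 7.17% higher, 7.40% with the block, and limma-voom 6.97%. With edgeR that share was 7.05% with RLE factors, 7.71% with library totals and 4.42% with no filter. All 14 members called on the group alone were among those of DESeq2 and of the block. The cause of the lost calls was not tested, beyond the smaller number of libraries. The longer ISRE letters stood in 10 of 22 members' windows, against 0.944% of genes. The limit of 3 counts covers counting error only, and low members such as Mx1 and Cmpk2 rest on as few as 11 and 14 counts in a library.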
